A study of Mus musculus with 12 samples.

Results

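Microtubule genes were followed in interneurons sorted from the embryonic mouse cortex. The set was defined by gene symbol, with earlier results of these data known. It took the genes whose symbol begins with Tuba, Tubb, Tubg, Stmn, Mapre, Dclk, Klc, Dync, Dynl, Kif3 or Kif5, with Map1 and a letter or with Kif1 and a letter, together with Map2, Map4, Map6, Mapt, Dcx, Pafah1b1, Nde1 and Ndel1. The rule found 62 of the 11361 genes that had a probe set of their own in the deposited table, and each was read from its probe set with the highest mean over the 12 arrays. A filter on dim probe sets left 58 of them. Dync2h1, Map1a, Tubg2 and Tubgcp6 did not pass it and were not tested. Because the rule works by prefix, it also took Map1lc3a and Map1lc3b, which encode LC3 proteins of autophagy, and Tubb2a-ps2, a pseudogene.

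The data are log2 intensities from 12 Affymetrix Mouse430_2 arrays, 3 per group. MGE cells, which are born in the medial ganglionic eminence, came from Nkx2-1-Cre;R26R-YFP embryos at E14.5 and E18.5, in which Cre driven by Nkx2-1 turns on a yellow fluorescent reporter. CGE cells came from Nkx2-1-Cre;Dlx1-lox-Venus-lox embryos at E16.5 and E18.5. In these, the Dlx1-driven Venus is lost wherever Nkx2-1-Cre has acted, so the label stays on in the caudal eminence and also in the lateral one, and the sorted cells need not be pure CGE cells. All 4 groups carry Nkx2-1-Cre on a mixed C57BL/6 and CBA background, the fluorescent cells were purified from pooled dissociated cortex by flow cytometry, and the cDNA was amplified before it was labelled. The titles name the 3 arrays of a group as biological replicas without saying how many litters they came from, so the p-values measure the spread between these arrays.

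A migrating interneuron moves by extending a leading process and then pulling its nucleus forward through it. Its microtubules are polymers of alpha and beta tubulin. Stathmins bind tubulin dimers and promote disassembly, whereas doublecortin, tau and the other structural MAPs stabilise the lattice. Gamma tubulin and its ring complex nucleate new microtubules, and end-binding proteins ride on their growing ends. Kinesins carry cargo mostly towards these plus ends. Cytoplasmic dynein moves the other way and, with LIS1 (Pafah1b1), Nde1 and Ndel1, pulls the nucleus. Mutations of doublecortin, LIS1 and several tubulins are a known cause of human disorders of neuronal migration.

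RefSeq promoter windows of 250 bases before to 50 bases after the gene start were found for 45 of the members, which had 53 of them. 3 of these genes are shown here because the results turn on them. Dclk1 has 2 annotated starts and its probe sets split into 2 kinds, Kif5c fell with embryonic day in both lineages, and Tubb3 is one of the 2 genes used here as neuronal markers. The sequences are of build GRCm38.p6, on the plus strand, and capitals mark 3 promoter motifs, each searched on both strands, so that some stand as the reverse complement. These were the CCAAT box with exactly those letters, the GC box read as GGGCGG, and the TATA box read as TATAAA. The windows are chr3:55242114-55242413 and chr3:55461478-55461777 for Dclk1, chr2:49619036-49619335 for Kif5c and chr8:123411303-123411602 for Tubb3.
Dclk1 promoter 1: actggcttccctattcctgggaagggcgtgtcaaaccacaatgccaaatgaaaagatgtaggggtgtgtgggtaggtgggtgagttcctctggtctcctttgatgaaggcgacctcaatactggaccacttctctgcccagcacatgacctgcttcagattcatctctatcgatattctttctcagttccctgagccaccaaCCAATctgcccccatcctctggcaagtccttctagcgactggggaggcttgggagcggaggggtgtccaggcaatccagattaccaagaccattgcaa
Dclk1 promoter 2: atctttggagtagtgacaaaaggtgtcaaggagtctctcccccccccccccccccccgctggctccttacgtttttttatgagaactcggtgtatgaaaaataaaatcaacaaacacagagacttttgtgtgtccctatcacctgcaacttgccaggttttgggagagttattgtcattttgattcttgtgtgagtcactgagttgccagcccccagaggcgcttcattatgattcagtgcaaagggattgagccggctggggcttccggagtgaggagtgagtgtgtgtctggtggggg
Kif5c promoter: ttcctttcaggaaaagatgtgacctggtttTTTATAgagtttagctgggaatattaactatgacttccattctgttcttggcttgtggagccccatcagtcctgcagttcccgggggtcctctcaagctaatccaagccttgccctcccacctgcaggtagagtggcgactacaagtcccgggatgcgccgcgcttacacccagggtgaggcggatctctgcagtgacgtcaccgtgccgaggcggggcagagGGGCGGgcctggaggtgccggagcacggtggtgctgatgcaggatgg
Tubb3 promoter: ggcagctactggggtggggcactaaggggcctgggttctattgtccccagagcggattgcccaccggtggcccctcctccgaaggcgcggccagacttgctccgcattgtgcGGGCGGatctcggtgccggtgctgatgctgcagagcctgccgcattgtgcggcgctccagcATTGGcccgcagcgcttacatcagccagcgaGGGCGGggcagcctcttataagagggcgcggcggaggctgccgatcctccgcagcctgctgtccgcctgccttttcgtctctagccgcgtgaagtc

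CCAAT stood in the first Dclk1 window and in that of Tubb3, and the second Dclk1 window held no match to any motif searched. Tubb3 had 2 copies of GGGCGG and Kif5c 1 copy of it and 1 of TATAAA. Over the 53 windows of the members, 36 held GGGCGG, 20 CCAAT, 8 TATAAA and 9 CAGCTG, an E-box that reads the same on both strands. In all 32851 windows of the table the shares were 35.7% for GGGCGG, 37.4% for CCAAT, 13.6% for TATAAA and 16.3% for CAGCTG. The median GC content was 61.0% for the members and 52.7% for all windows. These matches describe letters in a window and say nothing about which factors bind there.

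Both neuronal markers were well above the level of the dim-probe filter (7.10 to 7.17) on every array. Stmn2 lay between 11.17 and 12.71 and Tubb3 between 12.82 and 13.65. Other cell types moved with the groups, however. The summed linear intensity of the 13 oligodendrocyte precursor markers in the table was 24558 to 37847 on the MGE E18.5 arrays, against 4020 to 4798 in MGE E14.5, 3452 to 4478 in CGE E16.5 and 3776 to 5352 in CGE E18.5 cells. In MGE E18.5 cells 0 of these markers were below the filter level, and 9 were in CGE E18.5 cells, with Pdgfra, Sox10 and Olig2 among them. The sum of 8 pan GABAergic genes was 18927 to 23172 in MGE E18.5 cells and 28178 to 35781 in the other 3 groups. Proliferation genes were highest in CGE E18.5 cells, at 13869 to 29513 for 14 genes, against 9708 to 13073 in MGE E18.5 cells. The sum of 10 radial glia and astrocyte markers was highest in MGE E18.5 cells, at 22914 to 27441. It was 14185 to 17648 in CGE E18.5, 9043 to 11874 in MGE E14.5 and 8836 to 12283 in CGE E16.5 cells. Fabp7 was the brightest of them in MGE E18.5 cells (13.52). Pax6 and Sox2 went the other way, with means of 5.56 and 11.05 there against 10.81 and 11.40 in CGE E18.5 cells. The summed intensity of the 4 microglial genes went from 84 to 132 in MGE E14.5 to 413 to 712 in MGE E18.5 cells. In CGE cells it went from 145 to 264 at E16.5 to 435 to 887 at E18.5. The 3 that were tested rose in both lineages. All 4 were below the filter level at both earlier days, so those tested passed it by later arrays. The 3 vascular genes summed to 160 to 220 in MGE E14.5, 383 to 543 in MGE E18.5, 266 to 332 in CGE E16.5 and 217 to 444 in CGE E18.5 cells. The 2 tested rose in MGE cells, and all 3 were below the filter level in MGE E14.5 cells. The 7 genes listed for pallial glutamatergic neurons summed to 4629 to 7067, led by Bcl11b at 12.25 to 12.56 as a group mean, and none of the 3 tested was called. Emx1, Eomes and Slc17a6 were under the filter level in every group, and Tbr1 in all but MGE E14.5. The sum thus read mainly Bcl11b and need not measure these neurons. In bulk RNA, fewer neurons in the sort and less of a transcript per neuron cannot be told apart, and the part of these other cells in the differences below was not tested.

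The members were called most often with embryonic day in MGE cells and between the lineages at E18.5, and so were all genes. From E14.5 to E18.5 in MGE cells, 14 of the 58 tested members fell and 1 rose (24.1% and 1.72%). Of all 8792 genes tested, 9.77% fell and 11.4% rose. From E16.5 to E18.5 in CGE cells, 5 fell and 2 rose, beside 6.39% and 4.52% of all genes, shares that the members' 8.62% and 3.45% lie near. Between the lineages at E18.5, 9 were lower and 3 higher in MGE cells (15.5% and 5.17%), beside 9.86% and 13.0%. MGE and CGE cells also differ in their reporter, R26R-YFP or Dlx1-driven Venus. Lineage and reporter therefore cannot be told apart in any comparison between them. Between MGE cells at E14.5 and CGE cells at E16.5, 2 were lower and 0 higher, beside 5.90% and 4.15%; here lineage and day cannot be told apart. A difference was called at an adjusted p under 0.05, by limma with Benjamini-Hochberg adjustment over all genes tested. The change of the lineage difference, which is the MGE change with day minus the CGE change, was called lower for 1 member, Stmn2, and higher for 0, beside 1.87% and 6.72%. Its MGE part runs from E14.5 and its CGE part from E16.5, both to E18.5. Lineage and length of interval therefore cannot be told apart in it. In all, 24 members were called in at least 1 comparison and 34 in none.

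The median member difference was -0.17 in MGE maturation, -0.15 in CGE maturation, -0.10 in the late and -0.01 in the early lineage comparison, all on the log2 scale. The medians over all genes were -0.06, -0.07, -0.02 and -0.02. The 2 maturation comparisons share no array. In both of them 37 of the 58 members had a value below 0, where 39.4% of all genes did. Across the 58 members the 2 sets of differences had a Pearson r of 0.49 (Spearman 0.34), and 0.37 (0.29) across all 8792 genes, as a description since genes are not independent replicates.

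**Figure D1:**
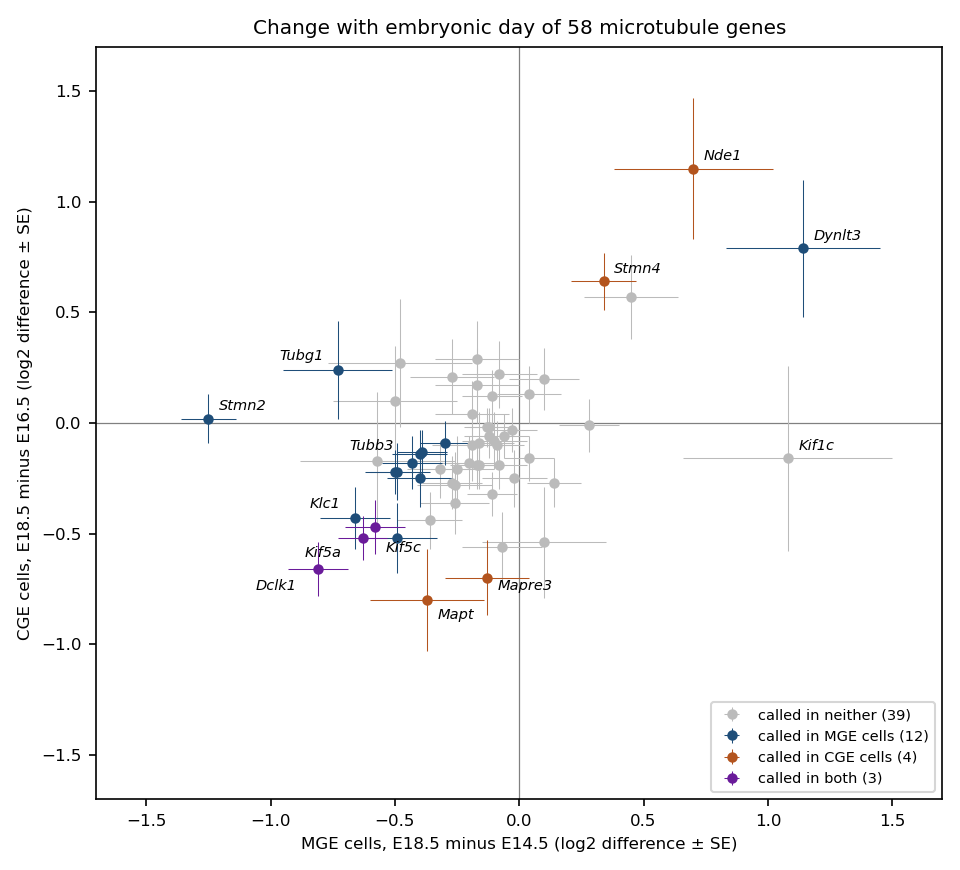
Log2 difference with embryonic day of the 58 tested members in MGE cells (horizontal axis, E18.5 minus E14.5) and in CGE cells (vertical axis, E18.5 minus E16.5), each with its SE from the fit and coloured by whether it was called in 1 lineage, both or neither. Most points lie left of and below 0, Dclk1, Kif5a and Kif5c are called in both lineages, and Stmn2 lies far to the left at a CGE difference of 0.02.

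Stmn2 showed the largest called fall among the members. It encodes SCG10, a stathmin of growing axons anchored to vesicle membranes. It read 12.57, 12.70 and 12.47 on the MGE E14.5 arrays, 12.62, 12.66 and 12.58 in CGE E16.5 cells and 12.71, 12.59 and 12.63 in CGE E18.5 cells, but 11.34, 11.47 and 11.17 in MGE E18.5 cells. The 3 arrays of MGE E18.5 lay below the other 9 with no overlap, and those 9 lay between 12.47 and 12.71. The fall in MGE cells was 1.25 on the log2 scale (SE 0.11, adjusted p = 8.5e-06), or 2.38-fold, and in CGE cells the difference was 0.02 (95% interval -0.22 to 0.26). MGE cells at E18.5 were 2.49-fold below CGE cells of the same day (log2 -1.32, SE 0.11, adjusted p = 4.5e-06), and the change of the lineage difference was -1.28 (SE 0.16, adjusted p = 0.00027). A second probe set, 1423280_at, gave -1.41, -1.34 and -1.44 for the same comparisons, each called. In the fit over all 16002 probe sets of 1 symbol the share called in either direction was 19.4% for MGE maturation, 22.7% for the late lineage comparison and 9.24% for the change of the lineage difference.

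The pan GABAergic genes were read beside Stmn2 in the same cells. Of these, 7 of 8 fell in MGE maturation, with a median of -0.62 and a lowest value of -0.82. The Stmn2 difference was -1.25 (95% interval -1.49 to -1.01), and whether the falls differ in size was not tested. The 13 oligodendrocyte precursor genes had a median of 3.98 in MGE maturation, and 12 rose. Of all genes 9.77% fell and 11.4% rose there. Of the 13, 7 were below the filter level in MGE E14.5 cells and 0 in MGE E18.5 cells. Such genes passed the filter mainly by arrays of other groups, which in part sets the count of risers. The median is not well bounded for the same reason. These values stand beside each other and no test links them.

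Stmn4, or RB3, another neuronal stathmin, followed a different course. It read 11.55, 11.54 and 11.76 in MGE E14.5, 12.01, 12.09 and 11.78 in MGE E18.5, 12.13, 11.93 and 11.95 in CGE E16.5 and 12.57, 12.80 and 12.53 in CGE E18.5 cells. The CGE E18.5 arrays were above all others. It rose in CGE cells by 0.64 (SE 0.13, adjusted p = 0.0109) and was lower in MGE than in CGE cells at E18.5 (-0.68, SE 0.13, adjusted p = 0.00232). In MGE cells the difference with day was 0.34 (adjusted p = 0.0798), and the change of the lineage difference was -0.29 (adjusted p = 0.373). The CGE call was lost when only the CGE arrays were fitted (adjusted p = 0.0707). Stmn1, the broadly expressed stathmin, lay between 13.88 and 14.10 and Stmn3 between 12.19 and 12.65, and neither was called in any comparison.

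**Figure D2:**
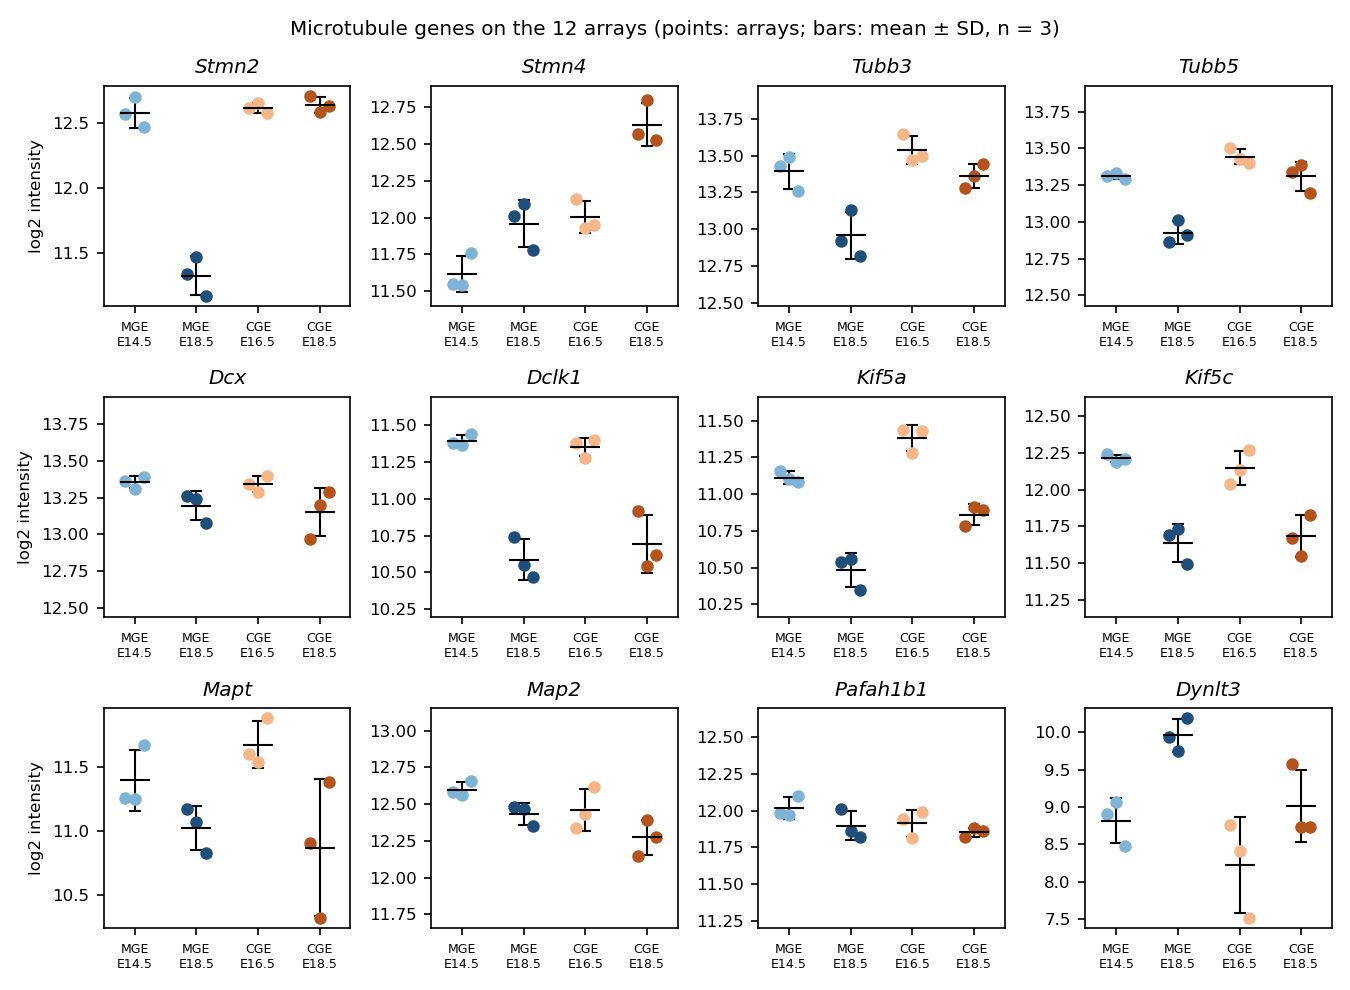
Log2 intensity of 12 members on each of the 12 arrays, by group, with the mean and SD of 3 arrays; the vertical axes differ between panels. Stmn2 is low only in MGE E18.5 cells (11.17 to 11.47), Stmn4 is highest in CGE E18.5 cells (12.53 to 12.80), Dclk1, Kif5a and Kif5c are lower at E18.5 in both lineages, and Dcx, Map2 and Pafah1b1 stay within narrow bands.

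The tested alpha and beta tubulins changed less than Stmn2 in MGE maturation. A probe set shared by Tuba1c and Gm6682 was left out of the tests. It read 7.62 and 8.80 in MGE cells at E14.5 and E18.5, and 7.37 and 9.17 in CGE cells at E16.5 and E18.5. Tubb3, the neuronal class III beta tubulin, read 13.43, 13.49 and 13.26 in MGE E14.5, 12.92, 13.13 and 12.82 in MGE E18.5, 13.65, 13.47 and 13.50 in CGE E16.5 and 13.28, 13.36 and 13.44 in CGE E18.5 cells. As with Stmn2, the MGE E18.5 arrays were the lowest 3, though by a narrower margin. It fell in MGE cells by 0.43 (SE 0.12, adjusted p = 0.0213) and was lower there than in CGE cells at E18.5 (-0.40, SE 0.12, adjusted p = 0.0272). In CGE cells the difference was -0.18 (adjusted p = 0.370), and the change of the lineage difference was not called (-0.26, 95% interval -0.62 to 0.10). The late call was lost without MGE E18.5 replicate 1 or 3 or CGE E18.5 replicate 2 or 3 (adjusted p = 0.0567 to 0.104), and the call in MGE maturation without MGE E14.5 replicate 1 or 2 or MGE E18.5 replicate 1 or 3 (0.0687 to 0.0911).

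Tubb5, a beta tubulin used in dividing cells and newborn neurons, gave nearly the same values. It read 13.31, 13.33 and 13.29 in MGE E14.5 and 12.86, 13.01 and 12.91 in MGE E18.5 cells, 13.50, 13.43 and 13.40 in CGE E16.5 and 13.34, 13.39 and 13.20 in CGE E18.5 cells. It fell in MGE cells by 0.39 (SE 0.10, adjusted p = 0.0152) and was lower than in CGE cells at E18.5 by the same amount (-0.39, SE 0.10, adjusted p = 0.0136). Its second probe set, 1455719_at, was called in both comparisons too, at -0.44 and -0.72. The call of Tubb5 at E18.5 was lost without MGE E18.5 replicate 1 (adjusted p = 0.0547), and the one in MGE maturation without MGE E14.5 replicate 1 or 2 or MGE E18.5 replicate 1 or 3 (0.0522 to 0.0592).

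Tubb4a was the only tubulin called between the lineages at the earlier days. It read 11.76, 11.72 and 11.59 in MGE E14.5 and 12.18, 12.13 and 12.16 in CGE E16.5 cells, which do not overlap. The difference was -0.47 (SE 0.11, adjusted p = 0.0190), and at E18.5 it was -0.06 (adjusted p = 0.754). The early call was lost without any 1 of the MGE E14.5 arrays or without CGE E16.5 replicate 1 or 3 (adjusted p = 0.0512 to 0.0739). The other beta tubulins, Tubb2a, Tubb2b, Tubb4b and Tubb6, and the pseudogene Tubb2a-ps2 were not called anywhere. Tuba1a, the main alpha tubulin of young neurons, lay between 14.18 and 14.40, close to the highest value of the table, 14.97, where differences may be compressed, and its probe set can cross-hybridise. All 8 beta tubulin members, the pseudogene among them, had an early lineage value below 0, from -0.47 to -0.10. So had 30 of the 58 members and 4692 of all 8792 genes. Of the 8, only Tubb4a was called, and related probe sets are not independent.

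**Figure D3:**
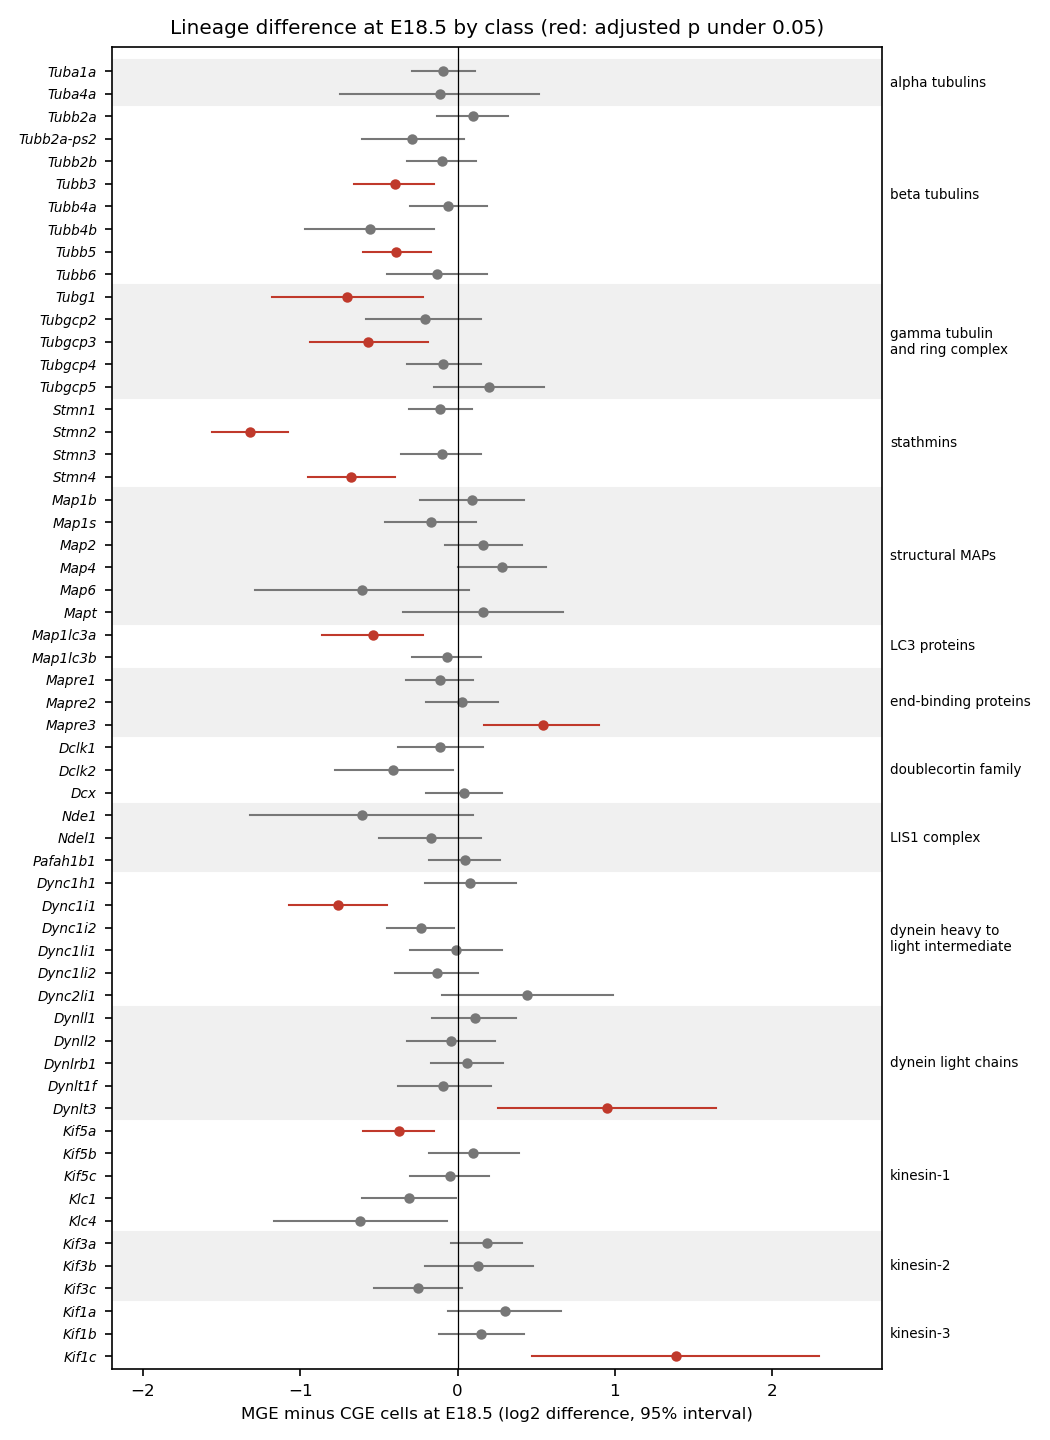
Log2 difference between MGE and CGE cells at E18.5 for each tested member, grouped by class, with its 95% interval; red marks an adjusted p under 0.05. Stmn2 stands lowest at -1.32, followed by Dync1i1 at -0.76, and Kif1c highest at 1.39 with a wide interval of 0.47 to 2.30.

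Of the proteins most closely tied to migration, Dcx and Pafah1b1 were not called in any comparison. Dcx read 13.36, 13.31 and 13.39 in MGE E14.5, 13.26, 13.24 and 13.08 in MGE E18.5, 13.34, 13.29 and 13.40 in CGE E16.5 and 12.97, 13.20 and 13.29 in CGE E18.5 cells. Its 4 kept probe sets were not called in any comparison, and the 95% intervals of the differences of the one used were -0.40 to 0.08 in MGE maturation and -0.43 to 0.05 in CGE maturation. The lineages differed by 0.02 and 0.04 at the earlier days and at E18.5. Pafah1b1, or LIS1, read 11.98, 11.97 and 12.10 in MGE E14.5, 12.01, 11.86 and 11.82 in MGE E18.5, 11.94, 11.81 and 11.99 in CGE E16.5 and 11.82, 11.88 and 11.86 in CGE E18.5 cells, so that the groups overlapped in each of the comparisons. None of its 5 differences was called, and the largest was -0.12.

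A pair of Pafah1b1 probe sets gave other values. The probe set 1427703_at fell in MGE cells by 1.19 (SE 0.23, adjusted p = 0.0037) and differed by 0.38 in CGE cells (adjusted p = 0.318), with a change of the lineage difference of -1.57 (SE 0.32, adjusted p = 0.0099). The probe set 1439656_at gave -0.72, 0.52 and -1.24 for the same comparisons without a call, while the remaining 2 lay between -0.35 and -0.12 in the maturation comparisons. On the MGE E14.5 arrays 1427703_at read 9.52, 9.90 and 8.81, and so was highest in replicates 1 and 2. It was not refitted without single arrays. Which part of the transcript each probe set reads was not used here.

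Dclk1, a kinase that carries the microtubule-binding domain of doublecortin, was the clearest of the genes that fell in both lineages. It read 11.38, 11.37 and 11.44 in MGE E14.5 and 11.38, 11.28 and 11.40 in CGE E16.5 cells, against 10.74, 10.55 and 10.47 in MGE E18.5 and 10.92, 10.54 and 10.62 in CGE E18.5 cells. The earlier and the later arrays did not overlap in either lineage, and the lineages did overlap on both occasions. The fall was 0.81 in MGE cells (SE 0.12, adjusted p = 0.00063) and 0.66 in CGE cells (SE 0.12, adjusted p = 0.00851), or 1.75-fold and 1.58-fold. The difference between these falls was -0.15 (95% interval -0.53 to 0.23). The CGE call was lost in a fit of the CGE arrays alone (adjusted p = 0.0707). Dclk2, its paralogue, was not called, though another of its probe sets, 1458488_at, was lower in MGE cells at E18.5 (-1.44, SE 0.35, adjusted p = 0.0108).

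The 8 kept probe sets of Dclk1 fell into 2 sorts. In 4 of them (1423125_at, 1435940_at, 1450863_a_at and 1451917_a_at) the difference ran from -1.03 to -0.79 in MGE and from -0.84 to -0.55 in CGE cells, and all 4 were called in both. In the other 4 (1424270_at, 1424271_at, 1436659_at and 1451289_at) it ran from -0.09 to 0.04 in MGE and from -0.34 to -0.07 in CGE cells, and none was called. In the fit over all probe sets 10.2% were called in CGE maturation. Dclk1 is known to make long and short transcripts and has the 2 annotated starts shown above, but the positions of the probe sets were not used here, so the sorts could not be assigned to them.

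**Figure D4:**
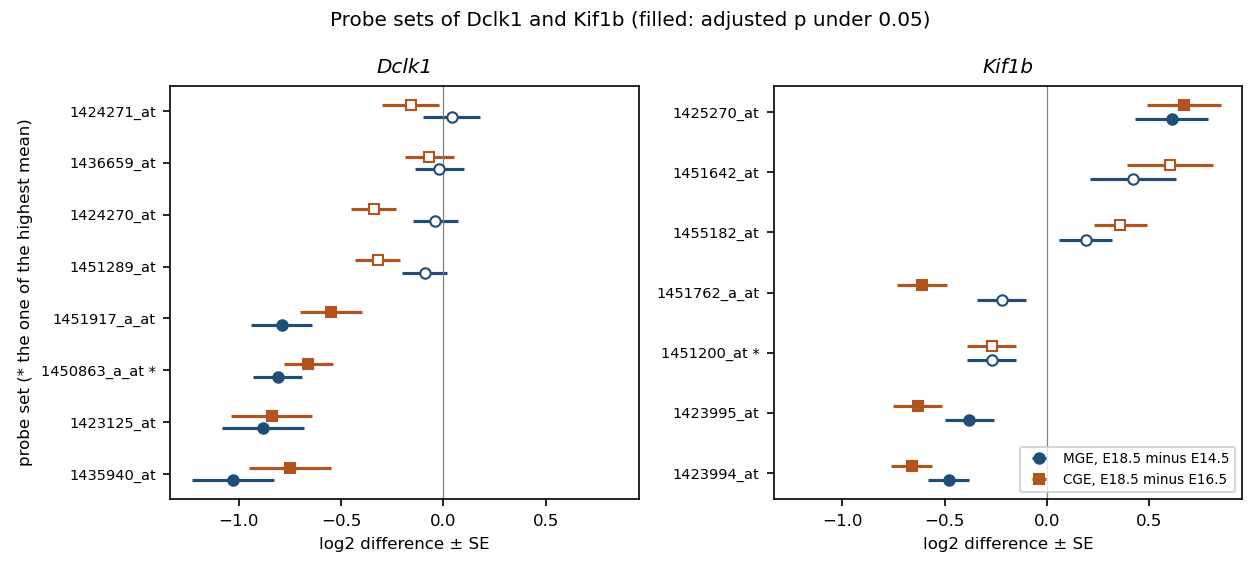
Log2 difference with embryonic day of every kept probe set of Dclk1 and Kif1b in MGE cells (circles) and CGE cells (squares), with its SE; filled symbols have an adjusted p under 0.05 and the asterisk marks the probe set of the highest mean. The upper 4 Dclk1 probe sets lie near 0 in MGE cells and the lower 4 at -0.79 or below, while Kif1b has probe sets called on both sides of 0.

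Among the structural MAPs, Mapt, or tau, fell in CGE cells. It read 11.60, 11.54 and 11.88 in CGE E16.5 and 10.91, 10.32 and 11.38 in CGE E18.5 cells, a fall of 0.80 (SE 0.23, adjusted p = 0.0470). The CGE E18.5 arrays spread over more than 1 log2 unit but stayed below those of E16.5. The call was fragile and was lost under 16 of 23 alternatives, including the removal of any 1 array but CGE E18.5 replicate 3 (adjusted p = 0.0504 to 0.156). All 4 Mapt probe sets were nonetheless called, at -0.90 to -0.78, in the fit over probe sets. In MGE cells, at 11.26, 11.25 and 11.67 on E14.5 and 11.17, 11.07 and 10.83 on E18.5, the difference was -0.37 (adjusted p = 0.298).

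Map2, the dendritic MAP, read 12.58, 12.56 and 12.66 in MGE E14.5, 12.48, 12.47 and 12.35 in MGE E18.5, 12.34, 12.43 and 12.62 in CGE E16.5 and 12.15, 12.39 and 12.28 in CGE E18.5 cells. The groups differed by less than the test could call, and the intervals were -0.41 to 0.08 in MGE and -0.44 to 0.05 in CGE maturation. Of its other probe sets, 1440699_at was lower in MGE cells at E18.5 (-0.81) and 1421328_at fell in CGE cells (-0.47, adjusted p = 0.0373). Map1b, Map1s, Map4 and Map6 were not called, though the Map4 probe set 1437855_at fell in MGE cells (-0.75, adjusted p = 0.0196). All 6 structural MAPs had values below 0 in both maturation comparisons, as had 39.4% of all genes. Of the end-binding proteins, Mapre3 (EB3, the neuronal form) fell in CGE cells from 8.23, 8.20 and 8.35 to 7.77, 7.66 and 7.26 (-0.70, SE 0.17, adjusted p = 0.0215). This left it higher in MGE cells at E18.5, where it read 8.26, 7.78 and 8.25 (0.54, SE 0.17, adjusted p = 0.0371). The fall in CGE cells was not called without CGE E16.5 replicate 3 (adjusted p = 0.0792) or CGE E18.5 replicate 3 (0.0562), and the late call was lost under 10 of 22 alternatives, 6 of them the removal of 1 array. Mapre1 (EB1) fell in MGE cells by 0.30 (adjusted p = 0.0487), a call that 15 of 23 alternatives lost, and its probe set 1422764_at was lower in MGE cells at E18.5 (-0.31, adjusted p = 0.0489).

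Of the motor genes, 3 of kinesin-1 (Kif5a, Kif5c and Klc1), 2 of kinesin-2 and 2 of dynein fell in MGE cells, and Kif5a and Kif5c also in CGE cells. In MGE cells 45.5% of the 11 kinesin and 18.2% of the 11 dynein members fell, beside 9.77% of all genes. Conventional kinesin, or kinesin-1, carries vesicles and organelles along axons. Kif5a, a neuronal heavy chain, read 11.16, 11.10 and 11.08 in MGE E14.5 and 10.54, 10.56 and 10.35 in MGE E18.5, 11.44, 11.28 and 11.43 in CGE E16.5 and 10.78, 10.91 and 10.89 in CGE E18.5 cells. The days did not overlap in either lineage, and the MGE arrays of each day lay below the CGE arrays they were set against. It fell by 0.63 in MGE cells (SE 0.10, adjusted p = 0.00114) and by 0.52 in CGE cells (SE 0.10, adjusted p = 0.0103). The CGE call was lost with its other probe set (-0.34, adjusted p = 0.236) and in a fit of the CGE arrays alone (0.0857). At E18.5 it was lower in MGE cells (-0.37, SE 0.10, adjusted p = 0.0210), a call lost without MGE E18.5 replicate 3 (adjusted p = 0.0888) or CGE E18.5 replicate 2 (0.0569) and in a fit of the E18.5 arrays alone (0.0966).

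Kif5c, the other neuronal heavy chain, read 12.24, 12.19 and 12.21 in MGE E14.5 and 11.69, 11.73 and 11.49 in MGE E18.5, 12.04, 12.13 and 12.27 in CGE E16.5 and 11.67, 11.55 and 11.83 in CGE E18.5 cells. It fell by 0.58 (SE 0.12, adjusted p = 0.00438) and 0.47 (SE 0.12, adjusted p = 0.0259), and the lineages overlapped on both occasions. The CGE call was lost without CGE E16.5 replicate 2 or 3 or CGE E18.5 replicate 2 (adjusted p = 0.0596 to 0.0953), with the probe set of the largest SD (-0.52, adjusted p = 0.0621), with array weights (0.0619) and in a fit of the CGE arrays alone (0.138). Kif5b, the ubiquitous heavy chain, overlapped between all groups and differed by 0.04 in MGE (95% interval -0.25 to 0.33) and by 0.13 in CGE maturation (-0.16 to 0.41). Klc1, a light chain that joins the motor to its cargo, read 11.54, 11.52 and 11.66 in MGE E14.5 and 10.87, 11.10 and 10.77 in MGE E18.5 cells. It fell by 0.66 (SE 0.14, adjusted p = 0.0052) and by a value not called in CGE cells (-0.43, adjusted p = 0.067). A second probe set, 1448541_at, fell as well (-0.67), and the probe set 1428881_at gave 0.63 without a call. With the mean of the 3 probe sets the difference was -0.23 (adjusted p = 0.155).

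Both Kif3b and Kif3c, motors of kinesin-2, fell in MGE cells by 0.49, with an adjusted p of 0.0458 and 0.0183. The call of Kif3b was lost under 13 of 23 alternatives and that of Kif3c without MGE E14.5 replicate 3 (adjusted p = 0.0695) or MGE E18.5 replicate 1 (0.076). Of kinesin-3, which carries synaptic vesicle precursors and mitochondria, Kif1a and Kif1b were not called. The Kif1b probe sets disagreed, however. The 2 probe sets 1423994_at and 1423995_at fell in both lineages, from -0.48 to -0.38 in MGE and from -0.66 to -0.63 in CGE cells, and 1425270_at rose in both, by 0.61 (SE 0.18, adjusted p = 0.0338) and 0.67 (SE 0.18, adjusted p = 0.0346). Kif1c, a more widely expressed member, read 8.60, 8.24 and 8.33 in MGE E18.5 and 6.15, 7.39 and 7.46 in CGE E18.5 cells. It was higher in MGE cells at E18.5 by 1.39 (SE 0.42, adjusted p = 0.0328), with the CGE arrays partly under the filter level. The call was lost without any 1 of the MGE E18.5 arrays or without CGE E18.5 replicate 1 (adjusted p = 0.0604 to 0.108).

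Dynein genes moved singly. Dync1i1, the neuronal intermediate chain, was lower in MGE cells on both occasions. It read 7.41, 7.20 and 6.86 in MGE E14.5 and 7.24, 7.21 and 7.31 in MGE E18.5 cells, near the filter level, and 7.79, 7.85 and 7.79 in CGE E16.5 and 7.97, 7.86 and 8.21 in CGE E18.5 cells. No MGE array reached any CGE array. The difference was -0.65 at the earlier days (SE 0.14, adjusted p = 0.0117) and -0.76 at E18.5 (SE 0.14, adjusted p = 0.00232), and both calls held under every alternative that could be run. Dync1i2, the ubiquitous intermediate chain, read 10.82, 10.79 and 10.75 in MGE E14.5 and 10.39, 10.23 and 10.26 in MGE E18.5 cells and fell by 0.50 (SE 0.10, adjusted p = 0.00413). In CGE cells it differed by -0.22 (adjusted p = 0.186).

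The motor's heavy chain, Dync1h1, was not called in MGE (-0.36, adjusted p = 0.0775) or CGE maturation (-0.44, adjusted p = 0.0561), but its probe set 1439950_at was called in MGE maturation (-1.17, SE 0.31, adjusted p = 0.022). That probe set read 8.39, 8.76 and 7.60 in MGE E14.5 and 7.31, 6.88 and 7.04 in MGE E18.5 cells. The later values lie near or under the filter level, so the size is not well bounded. Dynlt3, a light chain, was the member that rose in MGE cells. It read 8.90, 9.07 and 8.48 in MGE E14.5, 9.94, 9.75 and 10.19 in MGE E18.5, 8.76, 8.41 and 7.51 in CGE E16.5 and 9.57, 8.73 and 8.73 in CGE E18.5 cells. The MGE E18.5 arrays were the highest 3. The rise was 1.14 (SE 0.31, adjusted p = 0.0234), and at E18.5 it was higher in MGE cells by 0.95 (SE 0.31, adjusted p = 0.0483). Its 4 probe sets were all called in both comparisons, at 0.81 to 1.14 and 0.85 to 1.09. One of them, 1420614_at, was also called higher in CGE maturation (0.45, adjusted p = 0.0456) and in the early lineage comparison (0.63), in which 9.66% of all probe sets were called. For the probe set of the rule, the rise was not called without MGE E14.5 replicate 1 or 3 or MGE E18.5 replicate 1 or 3 (adjusted p = 0.0561 to 0.0865), and the late call was lost under 11 of 23 alternatives. Dynll2 fell in MGE cells by 0.40 (adjusted p = 0.0431), a call lost under 13 alternatives. Dynll1 was not called, though its probe set 1440278_at rose in MGE cells (0.58, adjusted p = 0.0274).

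Nde1, which links LIS1 to dynein and also acts in dividing progenitors, was called higher in CGE cells at E18.5 than at E16.5. It read 7.12, 6.31 and 6.36 in CGE E16.5 and 7.34, 8.65 and 7.26 in CGE E18.5 cells, and 6.29, 6.63 and 6.39 in MGE E14.5 and 7.17, 7.03 and 7.21 in MGE E18.5 cells. CGE E18.5 replicate 2 stood highest, and most of the earlier values were under the filter level, so the gene passed the filter by its later arrays. The fitted rise was 1.15 (SE 0.32, adjusted p = 0.0422), read against values mostly under that level, so its size is not well bounded. With dim values set to that level it was 0.63 (adjusted p = 0.166), and without CGE E18.5 replicate 2 it was 0.70 (adjusted p = 0.089). The call was lost under 14 of 22 alternatives. Beside it, 12 of 13 proliferation genes rose in the same cells, with a median of 2.73, where 4.52% of all genes rose. Of the 14 in the table, 8 were below the filter level in CGE E16.5 and 0 in CGE E18.5 cells. Their count is thus in part set by the filter, and the median is not well bounded. Ndel1, the paralogue of Nde1 in postmitotic neurons, was not called.

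Gamma tubulin, Tubg1, was dim and lower at MGE E18.5, where it read 6.97, 6.97 and 6.92, all under the filter level. It read 7.50, 7.68 and 7.86 in MGE E14.5 and 7.54, 7.78 and 7.65 in CGE E18.5 cells. The fall was 0.73 (SE 0.22, adjusted p = 0.0359) and the late difference -0.70 (SE 0.22, adjusted p = 0.0372), and the calls were lost under 9 and 10 of 22 alternatives. Of its ring complex, Tubgcp3 was lower in MGE cells at E18.5 (-0.57, SE 0.17, adjusted p = 0.0320), a call lost under 7 of 22 alternatives. Its MGE E18.5 arrays read 6.72, 6.89 and 7.01, all under the filter level. With dim values set to that level the difference was -0.29 (adjusted p = 0.0814). Tubgcp4 fell in MGE maturation (-0.40, SE 0.11, adjusted p = 0.0206), a call lost without MGE E14.5 replicate 1 or 2 or MGE E18.5 replicate 1 or 3 (0.0577 to 0.0845). Its probe set 1429345_at was called in all 5 comparisons, at -0.88 in MGE maturation, -0.85 in the late and 1.03 in the early comparison, with a rise in CGE cells (adjusted p = 0.0414) and a change of -1.87. It read 6.48, 7.09 and 6.66 in CGE E16.5 and 6.62, 7.13 and 6.94 in MGE E18.5 cells. These lie near or under the filter level, so the sizes are not well bounded. In MGE E14.5 cells it read 8.01, 8.19 and 7.13. Map1lc3a was lower in MGE cells at E18.5 (-0.54, SE 0.15, adjusted p = 0.0207), a call lost without MGE E18.5 replicate 1 (0.087) or CGE E18.5 replicate 1 (0.0636) and in a fit of the E18.5 arrays alone (0.0721). Its other probe set, 1451290_at, gave -0.13 there (adjusted p = 0.709), and the mean of both gave -0.33 (0.0831). That probe set was itself called in the early comparison (-0.94, adjusted p = 0.015) and in CGE maturation (-0.76, adjusted p = 0.0429).

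The counts themselves rested in part on single arrays. The 14 members that fell in MGE cells became 6 without MGE E18.5 replicate 1, 7 without MGE E18.5 replicate 3 or MGE E14.5 replicate 1, and 8 without MGE E14.5 replicate 2. The 9 that were lower at E18.5 became 4 without MGE E18.5 replicate 1. The 3 that were higher became 0 without MGE E18.5 replicate 1 or 3, and 1 without MGE E14.5 replicate 1 or 2, MGE E18.5 replicate 2 or CGE E18.5 replicate 2. The 2 that rose in CGE cells became 1 without any 1 MGE array, CGE E16.5 replicate 2 or 3 or CGE E18.5 replicate 2, and the 2 that were lower in the early comparison became 1 without any 1 MGE E14.5 array or CGE E16.5 replicate 3. The 5 that fell in CGE cells became 2 without CGE E16.5 replicate 3 and 3 without CGE E18.5 replicate 2.

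Genes with other roles on microtubules were taken from a list of 124, of which 96 were tested. In MGE maturation 13 of them rose and 17 fell (13.5% and 17.7%), beside 11.4% and 9.77% of all genes. In CGE maturation 9 rose and 12 fell (9.38% and 12.5%), beside 4.52% and 6.39%. In the late lineage comparison 9 were higher and 10 lower (9.38% and 10.4%), beside 13.0% and 9.86%. In the early comparison 3 were higher and 4 lower (3.12% and 4.17%), beside 4.15% and 5.90%. The change of the lineage difference was called higher for 4 and lower for 1 (4.17% and 1.04%), beside 6.72% and 1.87%. Named here are those called with a difference of 1 or more. Jakmip1, which links GABA-B receptors to microtubules, fell in both lineages (-1.75 and -1.14) and was lower in MGE cells at E18.5 (SE 0.31, adjusted p = 0.0353). Hook1, a dynein adaptor, fell in MGE cells (-1.02). Mark1, a kinase of tau and the MAPs, fell in CGE cells (-1.50), with a change of the lineage difference of 1.45. Map7d2, which helps kinesin-1 onto microtubules, fell in CGE cells (-1.19), was higher in MGE cells at E18.5 (1.92) and had a change of 1.72.

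Fign, the severing enzyme fidgetin, rose in MGE cells by 3.21 (SE 0.33, adjusted p = 3.3e-05), was 2.37 higher than in CGE cells at E18.5 and had a change of the lineage difference of 2.36. Nav2, a navigator protein of growing plus ends, rose in MGE cells (1.72) and was higher there at E18.5 (1.20), as was Clip4 (1.24). Kifc2, a minus-end kinesin, was lower in MGE cells at E18.5 (-1.28), with a change of -1.20. Kif26a, a kinesin-like signalling protein, was lower in MGE cells in both lineage comparisons (-1.01 and -1.52). Nav3 was lower in both as well (-1.35 and -0.51), and its change of 0.84 was called.

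The other large risers act in cell division. Kif2c, Kif11, Kif20b, Kif23, Prc1, Tacc3 and Tpx2 rose in both lineages, by 1.02 to 2.48 in MGE and by 1.56 to 2.90 in CGE cells, and Kif20a and Kif22 rose in CGE cells (2.14 and 2.91). Kif20a was lower in MGE cells at E18.5 (-1.27). Of the 13 proliferation genes tested, to which Kif11 also belongs, 8 rose in MGE and 12 in CGE cells, beside 11.4% and 4.52% of all genes. Of the 14 in the table, 9 were below the filter level in MGE E14.5 and 8 in CGE E16.5 cells. These counts are thus in part set by the filter.

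Of the 11 kinesin members, 5 fell in MGE cells (45.5%, beside 9.77% of all genes) and 6 were not called. In CGE cells 2 fell (18.2%, beside 6.39%) and 9 were not called. The values of those not called ran in both directions, from -0.56 for Kif1a in CGE cells to 1.08 for Kif1c in MGE cells.

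**Figure D5:**
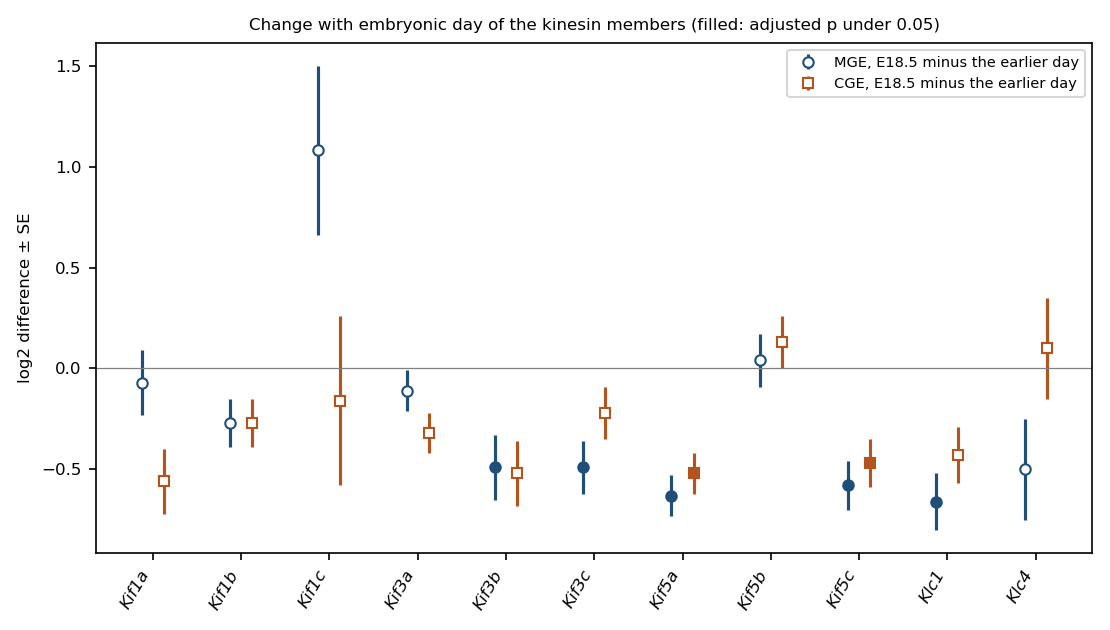
Log2 difference with embryonic day, with its SE, of the 11 kinesin members in MGE cells (circles) and CGE cells (squares); filled symbols have an adjusted p under 0.05. Kif5a and Kif5c are filled in both lineages, Kif3b, Kif3c and Klc1 in MGE cells, and Kif1c lies at 1.08 in MGE cells with an open symbol.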

How the data were processed

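RNA of sorted cortical cells was hybridised to 12 arrays in 4 groups of 3, named by the sample titles. The authors background-corrected and normalised the arrays with Bioconductor per the methods, while the submitters' processing notes list MAS5 with no version, so the algorithm is not settled. The deposited values are on a log2 scale, from 3.23 to 14.97, with array medians of 7.75 to 7.81. No detection calls were used, so a dim value cannot be told from an absent transcript. Arrays have no read depth, and precision is set by 3 arrays a group.

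Of the table's 27094 probe sets, 34 were controls, 22343 had 1 gene symbol in the platform annotation, 567 several and 4150 none. Probe sets of 1 symbol were kept if above the 40th percentile of their own array on at least 3 arrays, which left 16002. The brightest of these by mean over the arrays stood for its gene, giving 8792 genes. The 62 members had 155 probe sets, 40 of them had more than 1, and for 10 the one used is of a type that can read more than 1 transcript: x_at for 4 (Tuba1a, Stmn3, Map1lc3a, Dynlt1f) and s_at for 6 (Dynll2, Dynlrb1, Kif3b, Mapre2, Stmn1, Tubb2a). A further 7 probe sets that name a member beside other genes were left out.

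Under R 4.3.3, limma 3.58.1 (lmFit, eBayes) fitted the contrasts with 1 mean per group over the 12 arrays, 8 residual and 3.60 prior degrees of freedom, two-sided, with Benjamini-Hochberg adjustment over all genes of a comparison. The script was tested on simulated data. Probe sets were also fitted singly over all 16002. Members called in a comparison were named or counted by class, and array values were given for up to 6 called members with the largest difference and for Stmn2, Tubb3, Dcx, Dclk1, Pafah1b1, Map2 and Mapt; values of some further members were added after they were seen. Other microtubule genes were named where called with an absolute difference of 1 or more in a comparison. The members and lists were chosen with earlier results of these data known. Replicate numbers did not pair the arrays: of 18 same-numbered pairs, 4 had deviations correlated over 0.1 (-0.172 to 0.28). MGE E14.5 replicates 1 and 2 differed less than other pairs (SD of differences 0.218 against 0.358 to 0.514) and were merged in an alternative. In all, 23 alternatives were run, 12 of which left out 1 array.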

Additional observations from a re-analysis of the deposited data

Results flagged for a closer look

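The test of the difference between the lineages in their change with embryonic day picked out 4 results among the members. The MGE change starts at E14.5 and the CGE change at E16.5, so lineage and length of interval cannot be told apart. For Stmn2 the difference in change was -1.28 (SE 0.16, adjusted p = 0.00027), with a fall in 3 of 3 MGE E18.5 arrays below all earlier MGE arrays and no such shift in CGE cells. The second Stmn2 probe set, 1423280_at, gave -1.44 (SE 0.18, adjusted p = 0.00042). The Pafah1b1 probe set 1427703_at gave -1.57 (SE 0.32, adjusted p = 0.0099), whereas the probe set used for that gene gave -0.06 (adjusted p = 0.855). The Tubgcp4 probe set 1429345_at gave -1.87 (SE 0.39, adjusted p = 0.0103), with -0.88 in MGE and 1.00 in CGE maturation, whereas the probe set used for that gene gave -0.26. For 1429345_at, the CGE E16.5 arrays (6.48 to 7.09) and MGE E18.5 arrays (6.62 to 7.13) lay near or under the filter level. MGE E14.5 replicate 3 also lay there (7.13). What sets these single probe sets apart was not tested.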

How the results depend on the processing

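Of the 37 called member differences, 10 kept their call under every alternative run and 27 lost it under at least 1. The 10 were Stmn2 in MGE maturation, the late lineage comparison and the change of the lineage difference, Dync1i1 in both lineage comparisons, Dclk1, Dync1i2, Kif5a and Kif5c in MGE maturation and Stmn4 in the late comparison. Leaving out 1 array at a time gave 6 to 15 fallen and 0 to 2 risen members in MGE maturation, 2 to 6 and 1 to 3 in CGE maturation, 4 to 10 lower and 0 to 3 higher members in the late comparison, 1 to 2 lower and 0 to 1 higher in the early one, and 1 to 2 lower and 0 to 0 higher for the change of the lineage difference. In MGE maturation, the count that rose was 3 with the probe set of the largest SD, 2 with a floor at the 40th percentile, 4 with only the compared groups, 6 with array weights and 3 with an intensity trend, and the count that fell was 7 with MGE E14.5 replicates 1 and 2 merged. In CGE maturation, the count that rose was 4 with the largest SD, 0 with only the compared groups and 1 with no filter, a filter at the 60th percentile, the floor, the replicate block or the merged replicates, and the count that fell was 0 with only the compared groups, 3 with array weights and 9 with an intensity trend. In the late comparison, 1 member was higher with the filter at the 60th percentile or the merged replicates, and 5 were lower with only the compared groups. In the early comparison, 1 was higher with the mean of all probe sets, the largest SD or array weights, and 1 was lower with the filter at the 60th percentile or the merged replicates. For the change of the lineage difference, 1 was higher with the floor, and 2 were lower with the mean of all probe sets and 3 with the largest SD; it could not be fitted on only the compared groups. The replicate block moved no other count by over 1.5 times. With the probe set of the largest SD, 2 results changed sign: Klc1 in MGE maturation was 0.63 and Map2 in the late comparison was -0.81. Fewer arrays or fewer genes enter several of these fits by construction, and otherwise the cause was not tested.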

Other observations

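Of the probe sets left out because they name several genes, 4 read tubulins. The one shared by Tuba1b and Gm5620 read 13.14 ± 0.03 (SD, n = 3) in MGE E14.5, 13.29 ± 0.09 in MGE E18.5, 13.40 ± 0.02 in CGE E16.5 and 13.60 ± 0.12 in CGE E18.5 cells. The one shared by Tuba1c and Gm6682 read 7.62 ± 0.25 and 8.80 ± 0.28 in MGE cells at E14.5 and E18.5, and 7.37 ± 0.55 and 9.17 ± 0.53 in CGE cells at E16.5 and E18.5. The one shared by Tubb2b and Tubb2a-ps2 read 12.51 ± 0.03, 12.36 ± 0.17, 12.72 ± 0.15 and 12.43 ± 0.02 in the same order. The one shared by Tuba1a and Gm6682 was under the filter level, at 4.47 ± 0.05, 4.32 ± 0.13, 4.63 ± 0.11 and 4.44 ± 0.22 in that order. These values were not tested.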
